A study of Rattus norvegicus with 48 samples.

Results

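MiRNAs often used as references for serum measurements were followed through small RNA sequencing of 32 sera and 16 ulna bones of rats. The 7 members were taken by name from the 763 mature miRNAs listed in each library. The identifiers rno-miR-423-5p, rno-miR-423-3p, rno-miR-425-5p and rno-miR-320-3p were matched whole, and 3 further members, rno-miR-191a-5p, rno-miR-191a-3p and rno-miR-484, were matched by the start of their names. The question was how steady they were across the 11 groups of the study.

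ZDF rats (fa/fa) carry a mutation of the leptin receptor and develop type 2 diabetes, and Zucker lean rats served as the wild type (WT). All were male, ate a chow rich in fat and carbohydrate, and had a small defect cut in the femur before treatment, so that the placebo groups shared the surgery and the diet. Treatment lasted 12 weeks. The WT sera came from 5 rats on placebo, 5 on PTH (parathyroid hormone) and 4 on an anti-sclerostin antibody. The ZDF sera came from 5 rats on placebo, 5 on PTH, 4 on the same antibody and 4 on insulin. Bone was available from WT and ZDF rats after placebo or PTH (n = 4 in each group). The treatments belonged to different animal studies, with anti-sclerostin given in one without the placebo rats used here, so that this treatment and its study cannot be told apart.

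MiRNAs are short RNAs that guide Argonaute proteins to mRNAs, mainly through the seed, bases 2 to 8 of the mature strand. A hairpin precursor is cut into a 5p and a 3p arm, of which one is usually kept in larger amounts. Serum carries miRNAs in vesicles, in lipoproteins and bound to proteins, and much of that pool is released by blood cells. Measurements of serum miRNAs therefore rely on reference miRNAs whose level is assumed to stay the same in every sample, and miR-423, miR-425, miR-191, miR-320 and miR-484 are used in this way in kits and in human plasma studies.

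Mature sequences for 5 of the 7 members were taken from the RefSeq annotation of the rat (assembly GRCr8) and are shown 5′ to 3′ with the seed in capitals, because the seeds show that the members are not one family.
rno-miR-423-5p: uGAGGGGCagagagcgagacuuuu
rno-miR-425-5p: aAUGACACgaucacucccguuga
rno-miR-191a-5p: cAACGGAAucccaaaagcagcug
rno-miR-191a-3p: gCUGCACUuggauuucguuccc
rno-miR-484: uCAGGCUCaguccccucccgau
The 5 seeds were all different. Among the 686 listed miRNAs with a sequence, the seed of miR-423-5p was shared with rno-miR-3573-5p, that of miR-191a-3p with rno-miR-17-2-3p and that of miR-484 with rno-miR-344a-5p, whereas the seeds of miR-425-5p and miR-191a-5p were shared with none. The mature strands were 22 to 24 nt long, so levels of different miRNAs were compared without a correction for length.

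The miR-191 and miR-425 hairpins lie 366 bases apart on the plus strand of chromosome 8 (GRCr8, chr8:118142627-118142717 and chr8:118143084-118143166), both within Dalrd3, a protein-coding gene. The miR-423 hairpin lies on chromosome 10 (chr10:62412272-62412350, minus strand) within Nsrp1, and that of miR-484 on the same chromosome (chr10:1394905-1394981, minus strand), within no other annotated gene. The Mir191 hairpin is shown with both arms in capitals, since its arms differed widely in their reads.
Mir191 hairpin: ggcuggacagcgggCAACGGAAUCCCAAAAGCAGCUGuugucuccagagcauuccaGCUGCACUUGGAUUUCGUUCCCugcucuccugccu

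Depth on miRNAs was 28015 to 205664 reads in a serum and 41627 to 1398702 in a bone. The WT PTH bones were the shallowest bone group, with 41627 to 282285 reads. Of the sera, 4 stood apart from the rest by their correlation with the other libraries (WT PTH replicate 3, ZDF PTH replicates 1 and 3 and ZDF anti-sclerostin replicate 3; median Spearman rho 0.805 to 0.834, against 0.853 to 0.931), and of the bones WT PTH replicate 2 did so (0.789, against 0.859 to 0.944). Markers of the liver, miR-122-5p, miR-122-3p and miR-802-5p, were near 0 in bone, where their summed level was at most 11.0 CPM (reads of a miRNA scaled to a common library total by TMM, the trimmed mean of M-values), and markers of erythrocytes, leukocytes, muscle and mesenchyme were present in both tissues.

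In serum the members covered more than 2 orders of magnitude. MiR-191a-5p ranked first of all miRNAs, with 5.12 to 25.7% of the miRNA reads of a library (median 13.4%). MiR-320-3p followed with 0.331 to 2.54%, then miR-425-5p with 0.207 to 0.759% and miR-423-5p with 0.177 to 0.782%. MiR-423-3p took 0.131 to 0.423% and miR-484 took 0.0377 to 0.249%, while miR-191a-3p, the minor arm of the miR-191a hairpin, had only 3 to 69 reads per serum. Together the 7 members held 6.97 to 28.6% of the serum miRNA reads but only 0.553 to 2.14% of those of bone, where miR-191a-5p ranked 24th.

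No member was called as different among the 7 serum groups. At FDR < 0.2 (Benjamini-Hochberg adjusted p over all miRNAs tested), edgeR's quasi-likelihood test over the groups called 48 of 306 miRNAs (15.7%) and 0 of the 7 members. Their FDR values ran from 0.426 for miR-320-3p to 0.983 for miR-191a-3p, and 0 of 7 had an unadjusted p under 0.05. DESeq2 also called 0. Of 19 other miRNAs often used as references, the same test called 4, namely miR-126a-3p, miR-24-3p, miR-25-3p and miR-93-5p. Without the 4 sera that stood apart, miR-320-3p was called (FDR = 0.126).

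**Figure D1:**
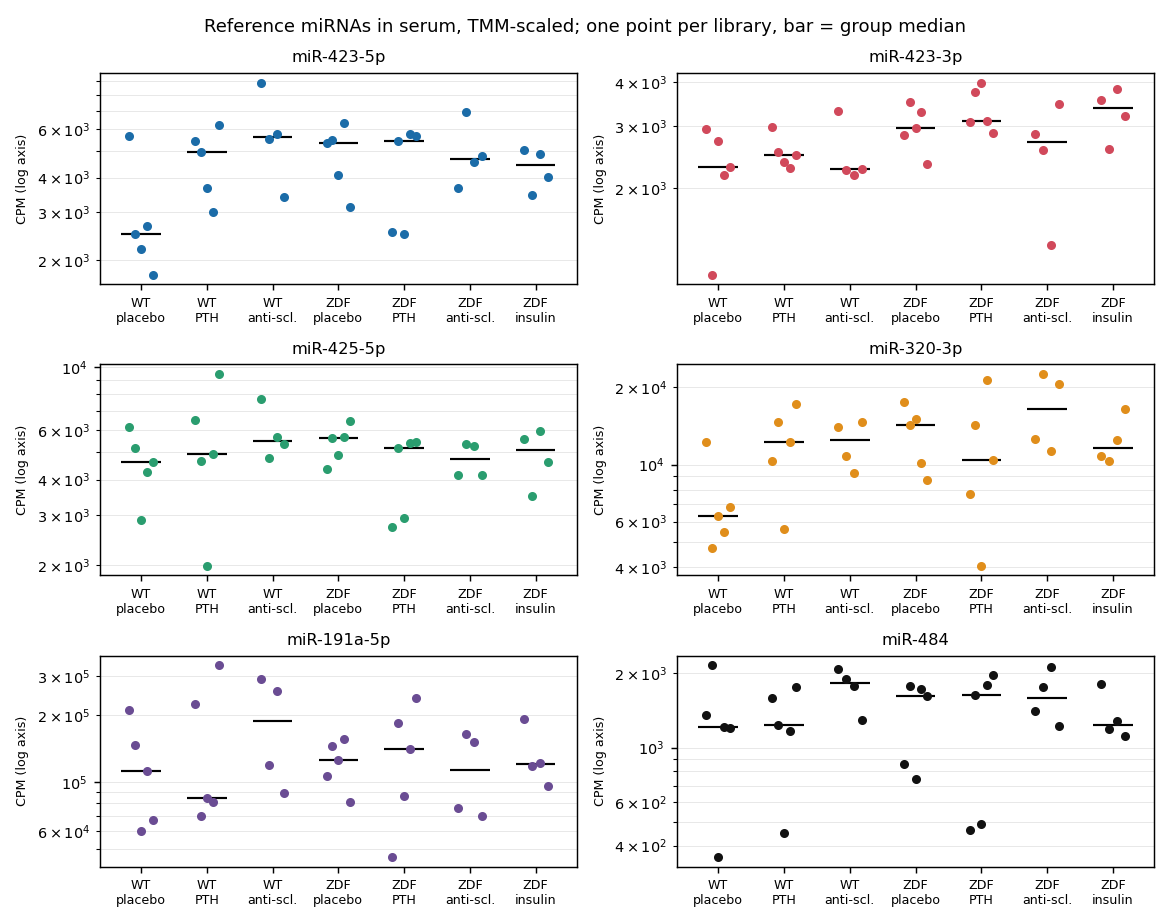
Levels of 6 members in each serum library (TMM-scaled CPM, log axis) by genotype and treatment, with a bar at the group median; miR-191a-3p is left out for its low reads. Points of different groups overlap in every panel, and the WT placebo group has the lowest median for miR-320-3p (6337 against 16523 in the highest group) and for miR-423-5p (2494 against 5643).

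A test that finds no difference between groups does not show a steady miRNA, since the spread within groups can hide one. The spread was therefore described as the SD of the log2 level over all 32 sera, with 1 CPM added before the log. It was ranked among the 85 miRNAs that had at least 10 reads in every serum, whose median SD was 0.64.

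MiR-423-3p was the steadiest member under TMM, with an SD of 0.39 and rank 2 of 85. Its levels ran from 1133 to 3981 CPM over the 32 sera. In ZDF placebo sera it stood at 2831, 3512, 2965, 3296 and 2338, and in ZDF insulin sera at 3549, 2577, 3813 and 3209. The lowest of these 9 sera was within 2-fold of the highest, and the groups overlapped.

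MiR-425-5p ranked 10 (SD 0.44), with levels from 1984 to 9442 and group medians that differed by at most 1.21-fold, the smallest ratio of the 7. MiR-423-5p ranked 29 (SD 0.55) and miR-320-3p 39 (SD 0.63). With TMM these 4 lay below the median SD, whereas miR-484 (SD 0.69, rank 55) and miR-191a-5p (SD 0.71, rank 61) lay above it. The side of the median depended on the scaling for miR-320-3p, which lay above it with RLE size factors (0.648 against 0.643, rank 44) and with miRNA reads without TMM (0.659 against 0.651, rank 45), and for miR-191a-5p, which lay below it with miRNA reads (0.635, rank 40). MiR-191a-3p was not ranked, and counting noise alone gives an SD of 0.45 at its depth, against its measured 0.80. The partner arm of miR-425-5p, miR-425-3p, was wider than it (SD 0.63, rank 40).

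MiR-191a-5p had the highest mean CPM of all serum miRNAs. It stood at 210165, 146178, 59913, 112232 and 67465 CPM in WT placebo sera. In WT PTH sera it stood at 224483, 70399, 84720, 81477 and 335280. In ZDF placebo sera it stood at 105841, 144647, 125729, 155385 and 80786. The WT sera held both the highest and the lowest value of these 3 groups, and between-group differences made up 7.82% of its variance over the sera. For miR-423-5p, miR-423-3p and miR-320-3p that share was 32.8%, 34.2% and 34.2%, against a median of 25.9% over the 85 miRNAs. For miR-425-5p and miR-484 it was lower than that median, at 11.5% and 13.4%. Spread within groups alone gives a share above 0, so these shares describe the sera and do not measure a group effect.

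The 5 steadiest serum miRNAs were miR-652-3p, miR-423-3p, miR-21-5p, miR-27a-3p and miR-872-5p, with SDs from 0.36 to 0.41. Of the 14 other reference miRNAs that could be ranked, 8 had an SD below the median, led by miR-103-3p (0.41, rank 7), miR-30e-5p (0.44, rank 8) and miR-26a-5p (0.46, rank 13). The widest were let-7g-5p (0.79, rank 68), miR-128-3p (0.80, rank 70) and miR-25-3p (0.91, rank 74).

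The order of the members depended on what the reads were scaled to. Scaled to all reads of the library, miR-423-3p ranked 1 of 85 (SD 0.57) and miR-191a-5p 77 (SD 1.24). Scaled to the extraction controls, RNAs added in equal amount to each serum during extraction, the median SD was 1.04, and SDs were wider than with TMM for all but 3 of the 85 miRNAs (miR-130b-3p, miR-192-5p and miR-375-3p, named after their values were seen). On that scale miR-425-5p, miR-484 and miR-320-3p ranked 4, 5 and 6 (SDs 0.72, 0.75 and 0.75), and miR-423-3p fell back to rank 39 (SD 1.02).

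**Figure D2:**
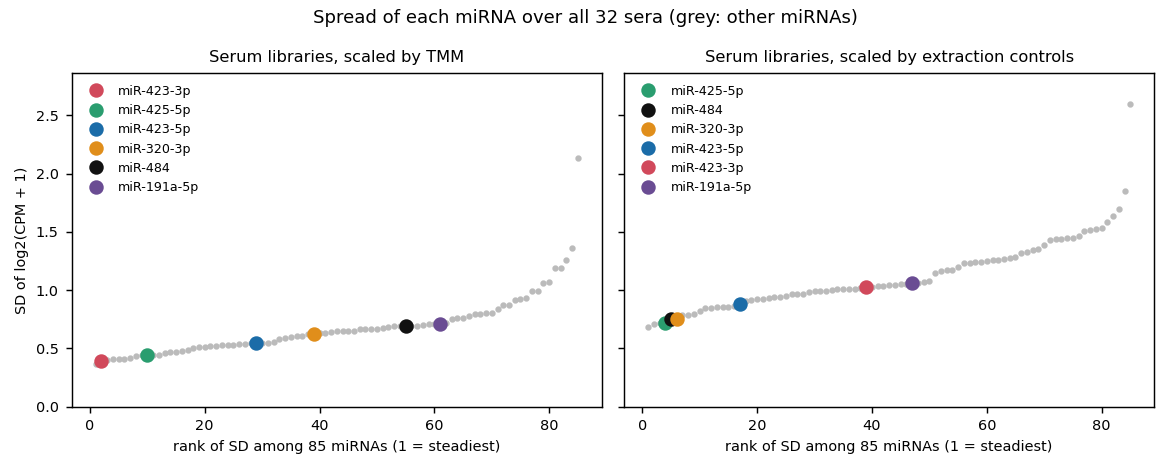
SD of the log2 level of 85 miRNAs over 32 sera, in rank order from the steadiest, with levels scaled by TMM (left) or by the extraction controls (right); colours mark the 6 ranked members and grey points the other miRNAs. MiR-423-3p moves from rank 2 on the left to 39 on the right, and miR-484 from 55 to 5.

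Ratios between members of one library do not depend on any scaling. Of the 21 possible pairs, miR-425-5p over miR-484 had the narrowest log2 ratio in serum (SD 0.42, median 1.90). It was followed by miR-423-5p over miR-425-5p (SD 0.46), miR-423-5p over miR-320-3p (SD 0.47) and miR-423-5p over miR-191a-5p (SD 0.49). Pairs with miR-423-3p were wider, up to an SD of 0.87 with miR-484, although miR-423-3p alone had the smallest SD.

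After subtraction of the group means, miR-425-5p and miR-484 went together over the 32 sera (Pearson r = 0.83), as did miR-423-5p and miR-191a-5p (r = 0.79) and the clustered miR-425-5p and miR-191a-5p (r = 0.72). MiR-423-3p had r values of only -0.25 to 0.29 with the other ranked members, its own 5p arm included (r = 0.29). The miRNAs most like each member among the 85 were miR-128-3p for miR-191a-5p (r = 0.89), miR-210-3p for miR-425-5p (r = 0.87), miR-7a-1-3p for miR-484 (r = 0.86), miR-191a-5p for miR-423-5p, miR-25-3p for miR-423-3p (r = 0.67) and miR-24-2-5p for miR-320-3p (r = 0.63). These r values are a description, and all points share the library and its scaling.

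Because lysed erythrocytes add miRNAs to serum, each member was set against a usual measure of hemolysis, the level of miR-451-5p (abundant in erythrocytes) divided by that of miR-23a-3p (not abundant there), on a log2 scale. The ratio varied widely within groups, from -0.51 to 3.30 in WT placebo sera and from -1.43 to 4.29 in ZDF PTH sera. The 4 insulin sera lay between 3.18 and 3.79 and the ZDF placebo sera between -0.49 and 1.41. Group means were subtracted from both measures, p-values came from 100000 permutations within groups and were adjusted over 83 miRNAs, of which 21.7% had a negative and 12% a positive relation at an adjusted p under 0.05.

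MiR-484 was lower in sera with a higher ratio (r = -0.66, rho = -0.65, n = 32, permutation p = 0.00086, adjusted p = 0.0059). The same held for miR-191a-5p (r = -0.62, rho = -0.61, permutation p = 0.0022, adjusted p = 0.011) and miR-425-5p (r = -0.53, rho = -0.57, permutation p = 0.0058, adjusted p = 0.022). MiR-423-5p (r = -0.48, permutation p = 0.029, adjusted p = 0.067) and miR-423-3p (r = 0.46, permutation p = 0.020, adjusted p = 0.056) did not pass after adjustment, and miR-423-3p was the one member with a positive sign. For miR-320-3p r was -0.22 (permutation p = 0.40, adjusted p = 0.51).

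Without the 2 sera farthest from the median, r was -0.57 for miR-484, -0.60 for miR-191a-5p, -0.48 for miR-425-5p and -0.00 for miR-320-3p. Levels were scaled by TMM but rest on shares of the same reads. A serum with more reads of miR-451-5p has fewer left for other miRNAs. How much of this remained after TMM scaling, and its part in the relations, was not tested.

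**Figure D3:**
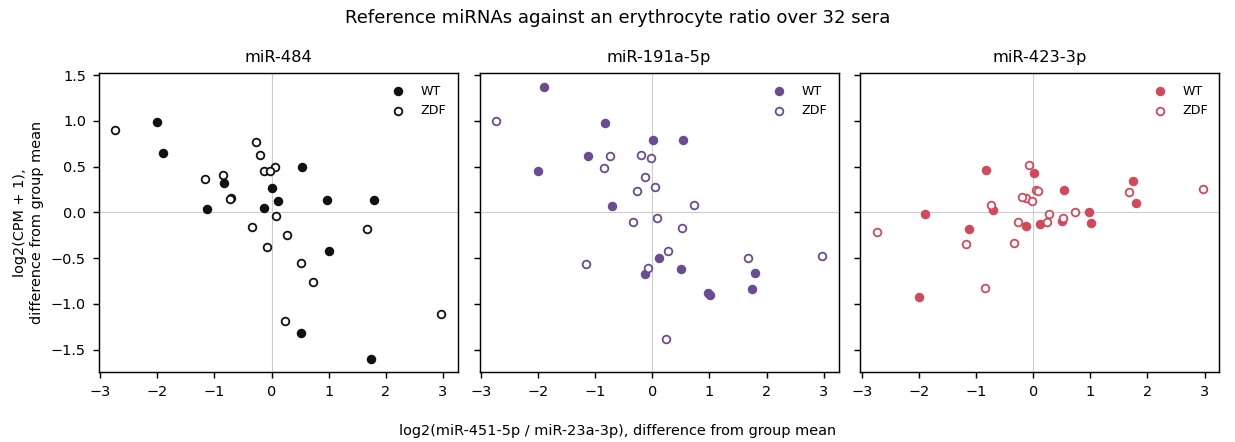
Difference of each serum from its group mean in the log2 level of 3 members (y axis) and in log2 of miR-451-5p divided by miR-23a-3p (x axis), with filled points for WT and open points for ZDF sera. MiR-484 (r = -0.66) and miR-191a-5p (r = -0.62) slope downwards, and miR-423-3p (r = 0.46) slopes slightly upwards.

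Next, the 8 comparisons between pairs of serum groups were made. The 7 members gave 56 values, of which 53 passed the independent filtering on the mean level, and 0 were called. In ZDF against WT PTH sera this filter kept only 43 of 476 miRNAs. It left miR-423-3p, miR-191a-3p and miR-484 without an FDR there, although miR-423-3p had 131 to 342 reads in these sera. The percentages of all miRNAs called were 10 for ZDF against WT under placebo, 2.33 under PTH and 3.69 under anti-sclerostin, 1.08 and 1.08 for PTH against placebo in WT and ZDF rats, 5.57 and 8.03 for anti-sclerostin, and 15.9 for insulin. The log2 fold changes of the members lay between -0.74 and 0.92, and 46 of 56 were smaller than 0.5 in size. Their precision was limited, as only 22 of the 56 intervals (95%) lay wholly within 1 log2 unit of no change. The groups were without overlap for 0 of the 56 values. Among all miRNAs the groups did not overlap for 2.7, 0 and 3.08% in ZDF against WT under placebo, PTH and anti-sclerostin, for 0.36 and 0% under PTH in WT and ZDF rats, for 2.3 and 2.34% under anti-sclerostin, and for 6.15% under insulin.

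Among the 56 values, the lowest exact permutation p was that of miR-423-3p in ZDF against WT PTH sera (0.016). Its log2 fold change there was 0.41, with levels of 2278 to 2980 CPM in WT and 2859 to 3981 in ZDF sera, which overlapped. MiR-320-3p in anti-sclerostin against placebo WT sera had an exact permutation p of 0.040. These exact p-values were not adjusted for the number of tests. By edgeR, an unadjusted p under 0.05 was reached by 2 of the 56 values. MiR-320-3p stood at 12209, 4760, 6337, 5492 and 6842 CPM in WT placebo sera and at 17462, 14230, 15041, 10146 and 8705 in ZDF placebo sera. All ZDF sera lay above 4 of the 5 WT sera, and WT replicate 1 lay among the ZDF sera. The log2 fold change was 0.78 ± 0.35 (SE), with an edgeR FDR of 0.220 and an exact permutation p of 0.024. It was called with RLE size factors (FDR = 0.178), miRNA reads without TMM (0.136), DESeq2 (0.186) and the erythrocyte ratio as a covariate (0.185). Without that WT serum it was 1.14 and was called (FDR = 0.034). With 1 serum left out in turn, the FDR ranged from 0.034 to 0.507. Over the other alternatives the log2 fold change ranged from 0.03 to 0.88, with an FDR of up to 0.973.

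MiR-423-5p stood at 5657, 2494, 2197, 2661 and 1773 in WT placebo sera and at 8846, 5546, 5739 and 3389 in WT anti-sclerostin sera. WT placebo replicate 1 was again the highest of its group, by more than 2-fold over the next. The log2 fold change was 0.92 ± 0.40 (edgeR FDR = 0.288, exact permutation p = 0.048), and 1.29 without that serum (FDR = 0.099). Without it, miR-423-5p was also called in ZDF against WT placebo sera (1.02, FDR = 0.082, against 0.60 with it) and miR-320-3p in anti-sclerostin against placebo WT sera (1.03, FDR = 0.183, against 0.75 with it). The direction of both depended on the scaling: with all 5 WT placebo sera, the first was -0.16 scaled to all library reads and -0.10 scaled to extraction controls, and the second was -0.11 scaled to extraction controls.

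The insulin comparison called the most miRNAs of the serum comparisons, and its members had log2 fold changes of -0.20 to 0.48. The erythrocyte ratio differed between its groups without overlap, so insulin and this ratio cannot be told apart here. MiR-484 differed by -0.02 (95% interval -0.66 to 0.63) and miR-191a-5p by 0.08 (-0.51 to 0.68), both under TMM. Scaling to extraction controls moved the median of all miRNAs in this comparison by 0.80, to miRNA reads without TMM by -0.30 and to all library reads by -0.27, so these intervals hold relative to the other miRNAs and not for the amount in serum. Among the 19 other reference miRNAs, let-7i-5p, miR-25-3p and miR-93-5p rose under insulin, by 0.71, 1.26 and 0.85. For the difference between ZDF and WT rats in the serum response to PTH or to anti-sclerostin, edgeR's interaction test called 0 of 7 members in each (2.25 and 1.06% of all miRNAs), and 0 had an unadjusted p under 0.05.

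**Figure D4:**
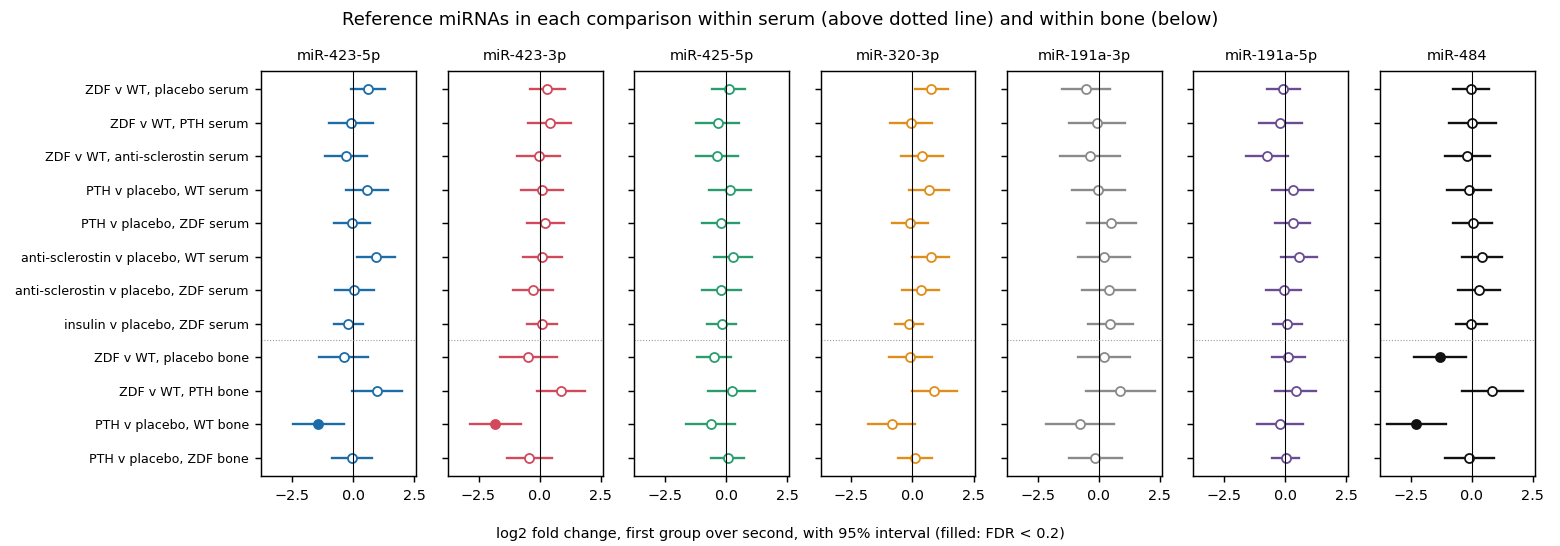
Log2 fold changes of the 7 members with 95% intervals in the 8 comparisons within serum and, under the dotted line, the 4 within bone; the first-named group is divided by the second and filled points passed FDR < 0.2. The serum points lie between -0.74 and 0.92 and none is filled, whereas 4 bone points are filled, all left of 0.

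In bone, the test over the 4 bone groups called 91 of 521 miRNAs (17.5%) and 2 of the 7 members, miR-484 (FDR = 0.0091) and miR-423-3p (FDR = 0.025). MiR-423-5p had an FDR of 0.227. Among the 19 other reference miRNAs it called 3, let-7g-5p, let-7i-5p and miR-30e-5p. In tissue, fewer cells of a type and less of a miRNA per cell cannot be told apart.

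PTH against placebo in WT bones called 3 of the 7 members, all lower, where 14.2% of all miRNAs were called and 9.3% were lower. MiR-484 stood at 43.8, 202, 305 and 203 CPM in WT placebo bones and at 39.2, 22.7, 22.0 and 62.3 in WT PTH bones. All but one placebo bone lay above all PTH bones. It fell by 2.27 ± 0.61 (SE) on the log2 scale (edgeR FDR = 0.0094, exact permutation p = 0.057), but these levels rested on 10 to 188 reads per placebo bone and 1 to 19 per PTH bone.

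MiR-423-3p stood at 259, 660, 2355 and 2065 in WT placebo bones and at 294, 363, 319 and 518 in WT PTH bones. The PTH bones lay close together, and the placebo bones spread over 9.10-fold, replicate 1 being the lowest of all 8. It fell by 1.81 ± 0.53 (edgeR FDR = 0.014, exact permutation p = 0.17). Its partner arm miR-423-5p stood at 92.1, 453, 610 and 693 and at 97.9, 45.4, 187 and 312, and fell by 1.43 ± 0.53 (edgeR FDR = 0.078, exact permutation p = 0.17). The smallest p an exact test allows for 4 bones against 4 is 0.029. The groups overlapped for all 7 members, as against 3.62% of all miRNAs without overlap, and also in the other bone comparisons (8.23, 7.28 and 1.41% of all miRNAs without overlap in ZDF against WT under placebo and PTH and in PTH against placebo ZDF bones).

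Without WT PTH replicate 2, which stood apart, the 3 members stayed called, with log2 fold changes of -2.21, -1.89 and -1.22 for miR-484, miR-423-3p and miR-423-5p. Leaving out WT PTH replicate 1 or WT placebo replicate 3 or 4 ended the call of miR-423-5p (FDR = 0.257, 0.248 and 0.267), whereas miR-484 and miR-423-3p stayed called without any 1 of the 8 bones. The call of miR-423-5p was also lost with miRNA reads without TMM (FDR = 0.204), with filterByExpr (FDR = 0.270) and at the threshold FDR < 0.05 (FDR = 0.062).

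Of 3 markers of striated muscle, only miR-133a-3p fell along with these members. Summed miR-1-3p, miR-133a-3p and miR-206-3p, all 3 with reads in every bone, ranged from 52533 to 418470 CPM in WT placebo bones and from 46830 to 67364 in WT PTH bones. MiR-133a-3p fell by 1.90 (FDR = 0.0051) but miR-1-3p rose by 1.45 (FDR = 0.055), and miR-206-3p differed by 0.69 (FDR = 0.539). The 3 bones with the most miR-133a-3p, ZDF placebo replicate 2 and WT placebo replicates 4 and 3 (444337, 416228 and 220267), were also the 3 with the most miR-423-3p (2221, 2065 and 2355). MiR-1-3p ordered the bones differently. It was highest in ZDF PTH replicate 2 and WT PTH replicate 2 (17944 and 8104), which had 860 and 363 of miR-423-3p.

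With the group means subtracted, miR-133a-3p and the members were related over the 16 bones with r = 0.84 for miR-423-3p (rho = 0.74, permutation p = 0.0055), 0.79 for miR-484 (rho = 0.79, permutation p = 0.0072) and 0.73 for miR-423-5p (rho = 0.72, permutation p = 0.0032). None passed after adjustment over 119 miRNAs (adjusted p = 0.12 for each), where 0% of all miRNAs did. Without the 2 bones farthest from the median, r was 0.78, 0.83 and 0.71. For miR-191a-5p r was 0.10 (rho = 0.21, permutation p = 0.53). The part of muscle, of depth and of PTH in the lower levels cannot be told apart in these groups.

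In ZDF bones PTH against placebo called 0 of 7 members and 0% of the 569 miRNAs tested by edgeR (42 of them and none of the members had an unadjusted p under 0.05). MiR-484 stood at 59.9, 148, 46.0 and 41.1 in ZDF placebo bones and at 84.7, 50.1, 43.8 and 107 in ZDF PTH bones, which overlapped throughout. The response of miR-484 to PTH differed between the genotypes by 2.16 ± 0.78 (edgeR interaction test, FDR = 0.195), where 3.03% of all miRNAs were called, but 6 of the 8 alternatives that could test it ended this call, as did leaving out ZDF placebo replicate 1 (FDR = 0.615) or ZDF PTH replicate 4 (FDR = 0.441). ZDF against WT placebo bones called miR-484 alone of the 7 (-1.29 ± 0.51, edgeR FDR = 0.190, exact permutation p = 0.11; 12.6% of all miRNAs called and 7.79% lower), a call lost without any 1 of ZDF placebo replicates 1, 3 and 4 or WT placebo replicate 4 (FDR = 0.224 to 0.354). It was also lost with all library reads (FDR = 0.964), with filterByExpr (FDR = 0.319) and with no independent filtering (FDR = 0.422), and under the latter pair edgeR called 0 of 243 and 0 of 579 miRNAs in this comparison (DESeq2 called 34, and 52 had an unadjusted p under 0.05 in the fit reported). In 5 further settings miR-484 was removed from testing in ZDF against WT placebo bones. These were leaving out WT placebo replicate 2 or 3, edgeR's legacy = FALSE or robust = TRUE, and FDR < 0.05. The call thus held in only 2 of the 6 leave-outs that could test it. ZDF against WT PTH bones called 0 of 7 by edgeR (0 with an unadjusted p under 0.05, 5.36% of all miRNAs), with log2 fold changes of 0.23 to 0.96.

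**Figure D5:**
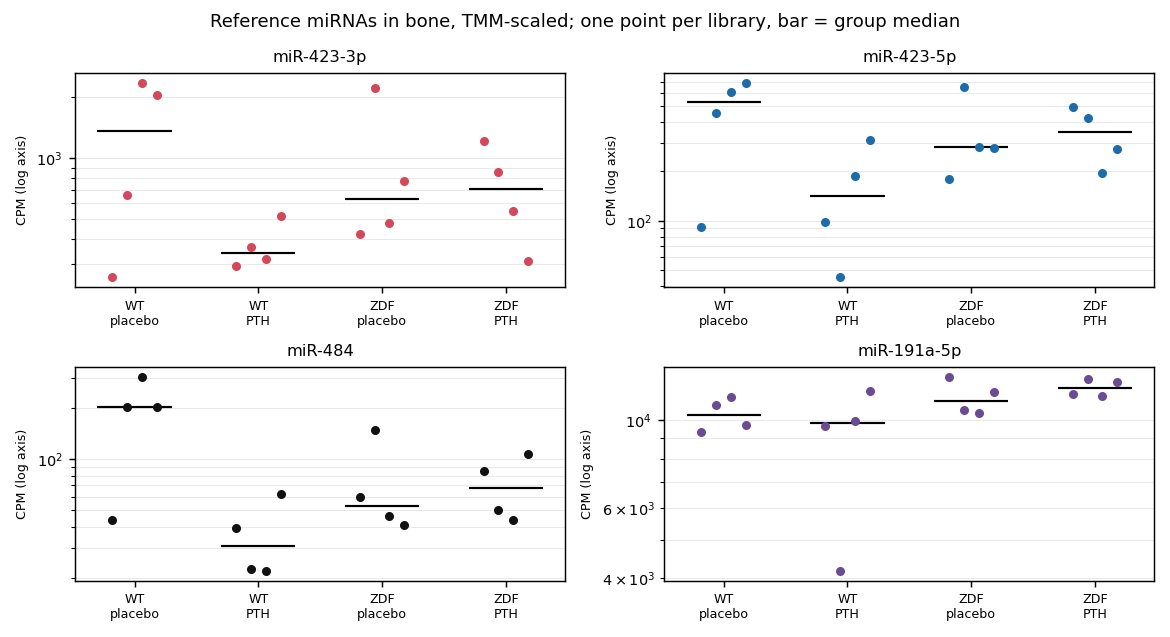
Levels of 4 members in each bone library (TMM-scaled CPM, log axis) by genotype and treatment, with a bar at the group median. The WT PTH bones have the lowest medians for miR-423-3p (341), miR-423-5p (142) and miR-484 (30.9), and miR-191a-5p lies between 9350 and 12839 in all bones but one at 4177.

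Under TMM, miR-191a-5p was among the steadiest miRNAs in bone, with rank 6 of 116 and an SD of 0.38. It stood at 9350, 10894, 11399 and 9735 in WT placebo bones, at 9671, 4177, 9947 and 11805 in WT PTH bones, at 12839, 10585, 10417 and 11729 in ZDF placebo bones and at 11617, 12705, 11518 and 12474 in ZDF PTH bones. All but one bone lay between 9350 and 12839, and the low one was WT PTH replicate 2, which stood apart and without which the SD was 0.15. With all bones, the SD of miR-191a-5p was 0.30 with RLE size factors and 0.41 with miRNA reads without TMM. Scaled to all library reads it was 1.19. Ranks in bone were made under TMM only. The extraction controls had only 2 to 65 reads in a bone and were not used there. MiR-423-3p, the steadiest member in serum under TMM, ranked 110 of 116 in bone (SD 1.07), and miR-320-3p ranked 101 (SD 0.98). The 4 other members had fewer than 10 reads in some bones and were not ranked. The 5 steadiest bone miRNAs were miR-99a-5p, miR-152-3p, miR-30d-5p, miR-100-5p and miR-22-3p, with SDs of 0.34 to 0.38, and none of them was among the 5 steadiest in serum.

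All members were higher in serum than in bone when the tissues were scaled together by TMM. In the 4 groups available in both tissues, 28 of 28 values were called, where 64.8% (WT placebo), 69% (ZDF placebo), 59.3% (WT PTH) and 70.8% (ZDF PTH) of all miRNAs were called and 28.1, 27.6, 32.4 and 30% were higher in serum. Of the 19 other reference miRNAs, 15 to 18 were called, 7 to 10 of them higher in serum. The log2 fold changes of the members ranged from 0.79 for miR-423-3p in WT placebo rats (edgeR FDR = 0.148) to 5.53 for miR-484 in WT PTH rats, and the tissues overlapped in 4 of 28 values, for miR-423-3p and miR-191a-3p. Of all miRNAs, 13.4, 16.3, 12.5 and 16% were higher in serum without overlap in these groups. The call of miR-423-3p in WT placebo rats had an unadjusted p of 0.087 and was lost without WT placebo serum replicate 1, 3 or 5 or bone replicate 1 or 2 (edgeR FDR = 0.215 to 0.419).

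MiR-484, miR-423-5p and miR-191a-5p had the largest differences, with log2 fold changes of 2.80, 2.73 and 3.62 in WT placebo rats and 4.00, 3.65 and 3.21 in ZDF placebo rats. Scaled to all reads of the library, only 11 values were called higher in serum and 4 were called lower, so that the direction for miR-423-3p, miR-320-3p, miR-425-5p and miR-191a-3p depended on the scaling. Over all 7 serum and 4 bone groups together, the test called 412 of 519 miRNAs (79.4%) and 7 of 7 members.

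The reads of the 2 arms of the miR-423 hairpin had opposite orders in the tissues. The log2 ratio of the reads of miR-423-5p to miR-423-3p was above 0 in most sera (median 0.61, range -0.67 to 1.73) and below 0 in all bones (median -1.38, highest -0.19). It was 0.34 ± 0.69 (SD) in sera and -1.38 ± 0.60 in bones of WT placebo rats, and 0.67 ± 0.25 and -1.30 ± 0.43 in ZDF placebo rats, with an exact permutation p of 0.0079 in each, the smallest possible. In WT PTH rats it was 0.84 ± 0.35 and -1.43 ± 0.93 (exact p = 0.0079) and in ZDF PTH rats 0.29 ± 0.73 and -0.99 ± 0.57, where the tissues overlapped (exact p = 0.048). Over the 84 comparisons of ratios made between the tissues, the adjusted p was 0.061 for the first 3 groups and 0.12 for the last. The miR-191a hairpin kept its order, with log2 ratios of the 3p to the 5p arm of -9.52 (median) in serum and -8.27 in bone.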

How the data were processed

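Small RNA was sequenced from 32 sera and 16 ulna bones with a kit made for biofluids. Per the study's methods, the authors removed adapters (cutadapt), dropped short reads, and aligned the rest with bowtie through miRDeep2, first to the rat genome and afterwards to miRBase. The deposited read counts per miRNA are raw counts, and the deposited RPM values were scaled by the authors and were not tested here.

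Counts were tested with edgeR (version 4.0.16, R 4.3.3) by the quasi-likelihood F-test after TMM scaling, on miRNAs with at least 1 read and with independent filtering on the mean level. The cutoff of this filter was the mean level that gave the most calls in each fit. Only the compared groups entered each fit, and a Benjamini-Hochberg FDR under 0.2 was called. Exact permutation tests (two-sided) used log2 of the TMM-scaled CPM plus 1. Levels were scaled within each tissue, and serum was compared with bone in a joint fit. The smallest p an exact test allows is 0.0079 for 5 sera against 5 or 4. Fits were tested on simulated data. Python 3.11.15 with scipy 1.17.1 was used for the rest.

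Each library is 1 rat, and no 2 of the 82 replicate pairs agreed within sampling noise (lowest chi-square per degree of freedom 12.7). Bones and sera were largely taken from shared animals, but the labels do not link them, so tissues were compared as separate samples. Alternatives were other scalings, filters and tools, each replicate left out in turn, and, chosen after seeing the data, the libraries that stood apart left out. The named miRNAs beyond the members were the steadiest 5 of each tissue, the nearest by correlation, called or extreme other references, and the markers. The members and lists were chosen with earlier results of these data known.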

Additional observations from a re-analysis of the deposited data

Results flagged for a closer look

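In 4 of the 77 groups checked, 1 library lay far from the rest of its group, where chance gives about 1 in 20 groups. WT placebo serum replicate 1 was the high one in 3 of them, with 5657 CPM for miR-423-5p (the others 1773 to 2661), 12209 for miR-320-3p (4760 to 6842) and 337 for miR-191a-3p (129 to 176). The fourth was WT anti-sclerostin serum replicate 1, with 3314 for miR-423-3p (2170 to 2271).

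The response of miR-484 to PTH in bone differed between ZDF and WT rats by 2.16 on the log2 scale by edgeR's interaction test (FDR = 0.195). Of the 8 alternatives that could test it, 6 ended this call, as did leaving out ZDF placebo bone replicate 1 or ZDF PTH bone replicate 4, and leaving out any of 9 other bones removed miR-484 from testing.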

How the results depend on the processing

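Of the 7 members, the test over the serum groups called 0, and 1 without the libraries that stood apart. The test over the bone groups called 2, with 1 under edgeR's filterByExpr and 2 to 4 when a library was left out. Over all groups 7 were called, and 4 with scaling to all library reads. The 12 comparisons within tissues gave 4 calls, which became 8 with RLE size factors, 10 with all library reads, 2 with filterByExpr, 2 at FDR < 0.05, and 2 to 8 when a library was left out (8 without WT placebo serum replicate 1, WT placebo bone replicate 1 or WT PTH bone replicate 4, and 2 without WT placebo bone replicate 3 or 4). Calls among all miRNAs moved with these settings too. With all library reads, ZDF against WT placebo sera went from 37 of 370 to 144 of 398. PTH against placebo WT bones went from 55 of 387 to 142 of 430. ZDF against WT placebo bones went from 29 of 231 to 3 of 422. With RLE size factors, ZDF against WT PTH bones went from 14 of 261 to 30 of 145. With filterByExpr, PTH against placebo WT bones gave 22 of 227. Serum against bone gave 28 calls, 15 with all library reads, and 27 to 28 with a library left out. The responses by genotype gave 1 call, 3 with extraction controls, 0 to 3 with a library left out, and 0 with RLE, miRNA reads without TMM, all library reads, filterByExpr, no independent filtering, DESeq2, edgeR's legacy = FALSE, FDR < 0.05 or without the libraries that stood apart. With extraction controls the interaction tests in serum called 83 of 147 miRNAs for PTH and 45 of 273 for anti-sclerostin. With TMM these counts were 6 of 267 and 3 of 283. The median SD of the members in serum was 0.63, and 0.95 with all library reads.

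With all library reads, serum against bone turned negative for miR-191a-3p, miR-320-3p, miR-423-3p and miR-425-5p, with log2 values of -0.089, -0.96, -1.75 and -0.29 in WT placebo, -1.08, -0.61, -1.71 and -0.24 in ZDF placebo and -0.20, -0.45, -0.53 and -0.28 in ZDF PTH rats. In serum, miR-423-5p in ZDF against WT placebo turned to -0.16 with all library reads and -0.10 with extraction controls, and miR-320-3p in anti-sclerostin against placebo WT rats to -0.11 with extraction controls. The cause was not tested. No paired analysis was possible because the replicate numbers only name the samples. Reads limit miR-191a-3p and, in bone, miR-484.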
